A study of Mus musculus with 24 samples.

Results

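Cultures of microglia (MG-LCs, MG-like cells) grown with M-CSF and IL-34 were compared with cultures of Kupffer cells (KC-LCs) and of peritoneal macrophages (PM-LCs) grown with M-CSF alone. The comparison takes 3 MG-LC libraries against 6 others, 3 of KC-LCs and 3 of PM-LCs, chosen by their labels, so that 9 of the 24 libraries of the series enter it. The series sequenced RNA of sorted tissue-resident macrophages (ex vivo) and of the corresponding cultures (in vitro) in 8 groups of 3 libraries. All cells came from wild-type female C57BL/6J mice, whose age the labels give as 8 to 12 weeks and the methods as 8 weeks. Cell suspensions of brain, liver or peritoneal lavage were plated on polyethylenimine-coated flasks in DMEM with 4.5 g/L glucose and 10% serum. All 9 flasks were kept at 3% oxygen for 14 days, with part of the medium exchanged once, on day 2. M-CSF was given at 20 ng/mL in all 9 cultures, and MG-LCs received IL-34 at 20 ng/mL as well. An MG-LC flask held the cells of 3 brains, a KC-LC flask those of 1 liver and a PM-LC flask those of 3 mice, and the methods describe sorting for the ex vivo cells and none for the cultures. Brain was homogenized mechanically, liver was digested with collagenase and DNase, and peritoneal cells were taken by lavage. Tissue of origin, this preparation and IL-34 change together between the groups and cannot be told apart here. The labels do not say that the flasks of a group came from separate mice or days, and p-values then measure only the spread between these libraries, which may be technical.

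Microglia arise from yolk sac progenitors and persist in the brain on signals through the CSF1 receptor, which binds both M-CSF and IL-34, and on TGF-β. Their identity is tied to the transcription factor Sall1, whose expression among macrophages is largely confined to microglia, and to a set of surface genes such as Fcrls, P2ry12 and Tmem119 that are lost when the cells leave the brain. Kupffer cells and peritoneal macrophages depend on the same receptor but carry other identity programmes, and mature peritoneal and Kupffer populations present antigen on MHC class II molecules to a larger extent than resting microglia do.

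The 9 libraries held 33917856 to 47105111 counted reads, and 16280 to 18678 genes had at least 1 read. Values are given as CPM, read counts scaled to a common library size after normalization for library composition (TMM) over all 24 libraries. A gene without a read could have a level of at most 0.0720 to 0.0969 CPM, the value of 3 reads, which covers counting error only. MG-LC replicate 1 stood apart from the other libraries. The summed level of 22 fibroblast genes (collagens and other matrix genes) was 40921 CPM in MG-LC replicate 1, 35.0 in replicate 2 and 1598 in replicate 3. It was 4.59, 5.61 and 47.2 CPM in KC-LCs and 42.5, 2678 and 621 CPM in PM-LCs. The summed level of 15 genes that all macrophages express (the macrophage core, among them Csf1r, Lyz2 and Cd68) was 19738 CPM in MG-LC replicate 1, against 35072 to 65946 CPM in the other 8 libraries. This sum also differed by tissue, with 26170 to 28196 CPM in sorted MG, 19874 to 29438 in sorted KCs and 127681 to 134486 in sorted PMs. Of the 15 genes, 6 were called higher and 7 lower in sorted MG. Values per macrophage core are therefore no neutral correction for macrophage content. Other cell types showed in PM-LCs, with smooth muscle and mesothelial genes summing to 718 and 328 CPM in PM-LC replicate 2 and B cell genes to 426 CPM in PM-LC replicate 1. MG-LC replicates 1 and 2 were the least alike of all pairs within a group, with a Pearson r of 0.79 over the log2 CPM of 14199 genes. In bulk cultures, fewer cells of a type and less RNA per cell cannot be told apart. Counts over gene lists are given without single libraries where leaving one out moved them by over 1.5 times.

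**Figure D1:**
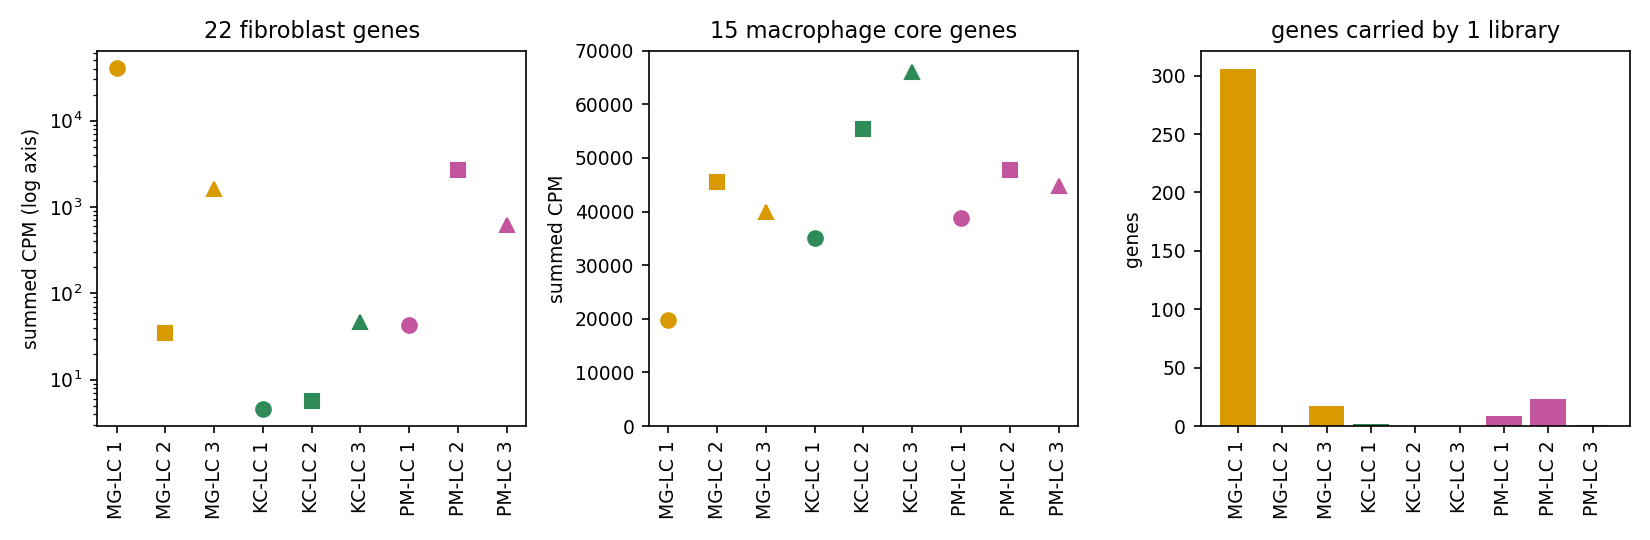
Summed CPM of 22 fibroblast genes (left, log axis), summed CPM of 15 macrophage core genes (middle), and the number of genes carried by 1 library alone (right) in each of the 9 cultures. MG-LC replicate 1 has the highest fibroblast sum (40921 CPM), the lowest macrophage core sum (19738 CPM) and 306 of the carried genes.

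In the replicated test, 1 gene separated MG-LCs from the mean of KC-LCs and PM-LCs. Of 14199 genes tested with edgeR, none was called higher in MG-LCs at an adjusted p under 0.05 (percent called 0) and Fabp7 was called lower (0.00704% of the genes). At an unadjusted p under 0.05, 1561 genes were higher (11%) and 610 lower (4.3%), and the median log2 fold change of all genes tested was 0.09. Against KC-LCs alone no gene was called in either direction (0% and 0%), with 1469 higher (10.3%) and 372 lower (2.62%) at an unadjusted p under 0.05. Against PM-LCs alone, Fabp7 and Lyz1 were called lower (0.0141%) and none higher (0%), with 954 genes higher (6.72%) and 791 lower (5.57%) at an unadjusted p under 0.05. These fits share the MG-LC libraries. With each of the 9 libraries left out in turn, 5.78 to 13.5% of all genes were higher and 2.25 to 6.96% lower at an unadjusted p under 0.05, with 5.78% and 3.86% without MG-LC replicate 1. Counts of list members at that level are to be read against these shares. The number of calls depended on the tool and on single libraries. DESeq2 called 571 genes higher and 198 lower, limma-voom called none, limma-voom with library weights called 7 higher and none lower, and a model of all 24 libraries called 723 higher and 249 lower. Without MG-LC replicate 2, edgeR called 305 genes higher and 90 lower, and without MG-LC replicate 1 it called 0 and 0. The genes below are therefore described by their level in every library, by whether the groups overlap, and by their level in sorted cells.

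Fcrls (chr3:87250758-87263738, minus strand, GRCm38), an Fc receptor-like surface protein that marks microglia, was at 211, 404 and 1028 CPM in MG-LC replicates 1, 2 and 3. Its level was 274, 206 and 237 CPM in KC-LCs and 9.11, 103 and 44.5 CPM in PM-LCs. MG-LC replicates 2 and 3 were above all 6 other libraries, while replicate 1 lay within the range of KC-LCs, so that the groups overlapped. The log2 fold change against the mean of both groups was 2.31 (SE 0.66, adjusted p = 0.212), 1.22 against KC-LCs and 3.41 against PM-LCs, and it did not pass the test. Of 19 fits, DESeq2 alone called Fcrls, and its fold change ranged from 1.48 to 3.40 on the log2 scale over them. Sorted MG held 3297 ± 177 CPM (SD, n = 3) against means of 0.363 CPM in sorted KCs and 6.32 CPM in sorted PMs, so the mean of MG-LCs (548 ± 427 CPM) was 16.6% of the sorted level and the mean of KC-LCs (239 ± 33.9 CPM) was above that of sorted KCs. As a percentage of the summed macrophage core of its own library, Fcrls was 1.07, 0.888 and 2.58 in MG-LCs, 0.781, 0.372 and 0.36 in KC-LCs and 0.0235, 0.215 and 0.0994 in PM-LCs. On that scale, which itself differed between sorted tissues, the lowest MG-LC library (0.888) was above the highest of the other 6 (0.781).

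Sall1 (chr8:89027235-89044162, minus strand), the zinc finger factor that defines microglia, was at 1.36, 1.52 and 20.7 CPM in MG-LCs, 0, 0 and 0.126 CPM in KC-LCs and 0.0323, 0 and 0.0253 CPM in PM-LCs. All 3 MG-LC libraries were above the other 6, which held 7 reads together, and replicate 3 was far above replicates 1 and 2. The log2 fold change was 7.97 (SE 1.39, adjusted p = 0.196). The level in sorted MG was 694 ± 46.2 CPM, of which the mean of MG-LCs was 1.13%. Sall3, a related zinc finger gene, was at 0.668, 2.94 and 12.1 CPM in MG-LCs, and the other 6 libraries held 3 reads of it, all in PM-LC replicate 1. Its level in sorted MG was 170.1 ± 10.45 CPM, so that both Sall genes separated MG-LCs from the other cultures at levels near 1 to 3% of those in sorted cells (1.13% and 3.07%).

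Serpine2, a secreted inhibitor of serine proteases that sorted MG express, was the homeostatic gene with the clearest separation. It was at 325, 153 and 712 CPM in MG-LCs, 10.01, 1.52 and 2.24 CPM in KC-LCs and 0.517, 10.8 and 6.36 CPM in PM-LCs. The lowest MG-LC library was 14.01-fold above the highest of the other 6 after 0.1 CPM was added to each. The log2 fold change was 6.28 (SE 0.96, adjusted p = 0.184), and 4 of 19 fits called it. Sorted MG held 803 ± 32.5 CPM, of which the mean of MG-LCs was 49.4%, a larger share than for Fcrls or Sall1.

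The homeostatic microglia list held 30 genes, all of which were higher in sorted MG than in sorted KCs and PMs (median log2 fold change 9.29). In the cultures 26 of them were tested. None was called, 14 were higher and none lower at an unadjusted p under 0.05, and the median log2 fold change was 1.40, against 11% and 0.09 over all genes tested. The summed level of the list was 5457, 6061 and 10192 CPM in MG-LCs and 5074 to 6693 CPM in the other 6 libraries. In this sum MG-LC replicates 1 and 2 lay within the range of the others. Sall1, Sall3 and Serpine2 were above all 6 other libraries in every MG-LC replicate, as were 2.05% of all genes. Without MG-LC replicate 1, 27 of the genes were tested, 13 were higher at an unadjusted p under 0.05, the median was 1.31, and 10 did not overlap, where 5.78% of all genes were higher and 4.89% above the other libraries without overlap. With MG-LC replicate 3 left out, 8 were higher (9.68% of all genes), and with MG-LC replicate 2 left out, 7 did not overlap (8.35% of all genes).

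Other homeostatic genes separated only part of the MG-LC libraries. Gpr34, a lysophosphatidylserine receptor, was at 5.52, 49.2 and 154 CPM in MG-LCs against 19.5 to 22.1 CPM in KC-LCs and 7.01 to 13.9 CPM in PM-LCs. Replicates 2 and 3 were above the other 6 libraries in Gpr34 and replicate 1 was not. P2ry12, the purinergic receptor of microglial processes, was at 2.49, 11.7 and 18.9 CPM in MG-LCs, and its highest values elsewhere were 8.85 CPM in KC-LCs and 2.40 CPM in PM-LCs. The mean of P2ry12 in MG-LCs was 0.200% of the level in sorted MG (5516 ± 159 CPM), so its values differed among cultures that all held little of it.

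Tmem119, a membrane protein of microglia that stromal cells such as osteoblasts express as well, had another order. It was at 60.5 CPM in MG-LC replicate 1, 1.07 CPM in replicate 2 and 9.09 CPM in replicate 3, against 0 to 0.378 CPM in KC-LCs and 2.39 to 6.11 CPM in PM-LCs. Replicate 2 lay below all PM-LC libraries, and the highest value was in the library with the highest fibroblast sum. The part of fibroblast RNA in the Tmem119 level was not tested. Its log2 fold change was 4.70, and 2.43 without MG-LC replicate 1 (adjusted p = 0.517).

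Cx3cr1 and Trem2 did not separate the groups. Cx3cr1, the fractalkine receptor, was at 7.70, 112 and 60.9 CPM in MG-LCs, 141, 126 and 69.6 CPM in KC-LCs and 3.59, 35.4 and 3.82 CPM in PM-LCs (log2 fold change 0.59, adjusted p = 0.792). KC-LC replicates 1 and 2 thus held more of it than any MG-LC library, while sorted KCs held 7.41 CPM and sorted MG 7177 ± 1466 CPM. Trem2, the lipid-sensing receptor, was at 389 to 1654 CPM in MG-LCs and 1484 to 2356 CPM in the other 6 libraries (adjusted p = 0.507).

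**Figure D2:**
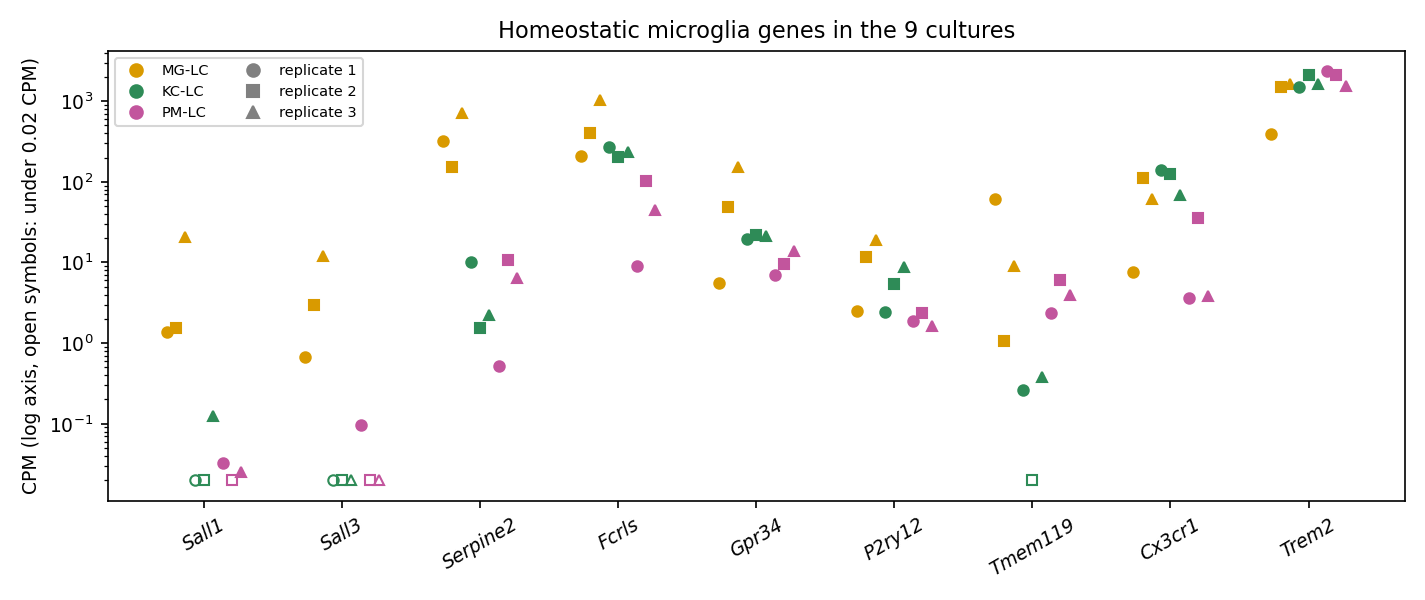
Level in CPM (log axis) of 9 homeostatic microglia genes in the 9 cultures, with colour for the cell type and shape for the replicate number; open symbols at the bottom stand for levels under 0.02 CPM. Sall1, Sall3 and Serpine2 are higher in all 3 MG-LC libraries than in the other 6, Fcrls, Gpr34 and P2ry12 in replicates 2 and 3, Tmem119 in replicates 1 and 3, and Cx3cr1 and Trem2 in none of them.

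Counted over all genes tested, 291 were higher in every MG-LC library than in any of the other 6 (2.05%). Replicate 1 held the highest value for 142 of these genes, replicate 2 for 16 and replicate 3 for 133. For 16 of the 291, replicate 1 was also at least 4-fold above each of the other 8 libraries. Klk6, Igfbp5, Slc1a3 and Ddit4, described below, were among these 16. None of the 291 was called by edgeR, and their lowest adjusted p was 0.184. The count was 537 on CPM without the composition factors, 426 when each gene was given as a percentage of the macrophage core (194 of the 291 among them), 695 without MG-LC replicate 1, 1185 without MG-LC replicate 2, 466 without KC-LC replicate 1 and 579 without PM-LC replicate 3.

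The sorted libraries were not used to define these 291 genes. Of all 15246 genes tested in sorted cells, 3229 were higher (21.2%) and 3489 lower (22.9%) in MG than in the mean of KCs and PMs. Among the 291 genes, 264 were tested there, and 120 of them were higher in sorted MG (45.5%) and 10 were lower (3.79%), against 21.4% and 25.0% of the 13054 genes tested both in the cultures and in sorted cells. The summed level of the 120 genes was 3690, 2329 and 4184 CPM in MG-LC replicates 1, 2 and 3, with 1559 CPM as the highest sum among the other 6 libraries. Their highest value was in replicate 3 for 74 genes, in replicate 1 for 43 and in replicate 2 for 3. Of the 120, 93 were also without overlap when given per macrophage core.

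Of the 12 genes with the largest gap between the groups, 7 were also called higher in sorted MG, namely Sall1, Sall3 and Serpine2, and Wscd1, Tln2, Eva1a and Cand2. Wscd1, a sulphotransferase-domain protein, was at 8.71, 2.24 and 35.6 CPM in MG-LCs and had no read in the other 6 libraries. Its mean in MG-LCs was at least 160.0-fold above the other 6 at a floor of 3 reads per library. MG-LC replicate 2 alone lay closer to that floor, which was at most 0.0969 CPM. Tln2, a talin that links integrins to actin, was at 8.60, 12.1 and 50.9 CPM in MG-LCs and at most at 1.70 CPM elsewhere. Eva1a, a gene linked to autophagy, was at 4.11, 2.32 and 47.6 CPM in MG-LCs and at most at 0.523 CPM elsewhere. Cand2, which regulates cullin ligases, was at 25.4, 3.09 and 18.7 CPM in MG-LCs and at most at 0.858 CPM elsewhere. Replicate 3 was the highest MG-LC library for Wscd1, Tln2 and Eva1a and replicate 1 for Cand2. In sorted MG these 4 genes were at 17.5 ± 2.44, 160.1 ± 6.72, 26.2 ± 0.948 and 24.7 ± 2.13 CPM, so that the means of MG-LCs were 88.8, 14.9, 68.8 and 63.8% of the sorted level.

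Mobp, Klk6, Kif1a and Igfbp5, which were also among the 12, were genes that sorted MG hardly held, and they are known from oligodendrocytes, neurons or matrix. Mobp, a myelin protein, was at 9.68, 0.373 and 5.72 CPM in MG-LCs, with 1 read in the other 6 libraries together. Klk6, a serine protease of oligodendrocytes, was at 16.3, 0.423 and 3.74 CPM in MG-LCs and had no read in the other 6 libraries. Its mean in MG-LCs was at least 70.3-fold above the floor of 3 reads, to which MG-LC replicate 2 alone lay closer. Mobp and Klk6 were highest in replicate 1, lower in replicate 3 and lowest in replicate 2, and sorted MG held 0.655 ± 0.529 and 0 CPM of them. Kif1a, a neuronal kinesin, was at 9.09, 3.41 and 16.0 CPM in MG-LCs and at most at 0.658 CPM elsewhere, with 0.155 ± 0.119 CPM in sorted MG. Igfbp5, a secreted binding protein of insulin-like growth factors, was at 242, 4.53 and 11.9 CPM in MG-LCs, at most at 1.16 CPM elsewhere and at 0.0524 ± 0.0726 CPM in sorted MG.

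Markers of other brain cells were counted as whole lists. Of 10 genes of oligodendrocytes and their precursors, 7 were tested, 4 were higher and none lower at an unadjusted p under 0.05 (11% and 4.3% of all genes), and the median log2 fold change was 2.00. With MG-LC replicate 1 left out, 2 of 7 were higher and the median was 0.76. Their summed level was 382, 217 and 291 CPM in MG-LCs against 155 to 219.7 CPM in the other 6 libraries, much of it from Mbp, which all 9 libraries held (95.5 to 166 CPM in MG-LCs and 60.1 to 114 CPM elsewhere). Mog, a defining myelin gene, had too few reads for the test and was at 2.90, 0.0498 and 1.66 CPM in MG-LCs with no read in the other 6 libraries. Of 8 astrocyte genes 5 were tested and 2 were higher, with a median of 3.29. Leaving out MG-LC replicate 1 gave 1 higher and a median of 0.62, and leaving out MG-LC replicate 2 or PM-LC replicate 2 gave 4. Slc1a3, a glutamate transporter of astrocytes that sorted MG also held (198 ± 2.18 CPM), was at 36.8, 0.672 and 5.32 CPM in MG-LCs and at most at 0.184 CPM elsewhere. Aqp4, the defining astrocyte water channel, was at 0.334, 0.0249 and 0 CPM in MG-LCs and had no read elsewhere. The sum of 8 neuronal genes was 138, 0.149 and 16.5 CPM in MG-LCs against at most 2.12 CPM in the other cultures. Of the MG-LC libraries, replicate 2 held least of the neuronal genes and of Mobp and Klk6. Of the 291 genes, 27 were expressed too low to be tested in sorted cells, and all 27 were under 1 CPM in every sorted MG library. Their summed level was 976, 60.3 and 169 CPM in MG-LC replicates 1, 2 and 3 against at most 19.5 CPM in the other 6. The part of other brain cells in these levels was not tested.

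**Figure D3:**
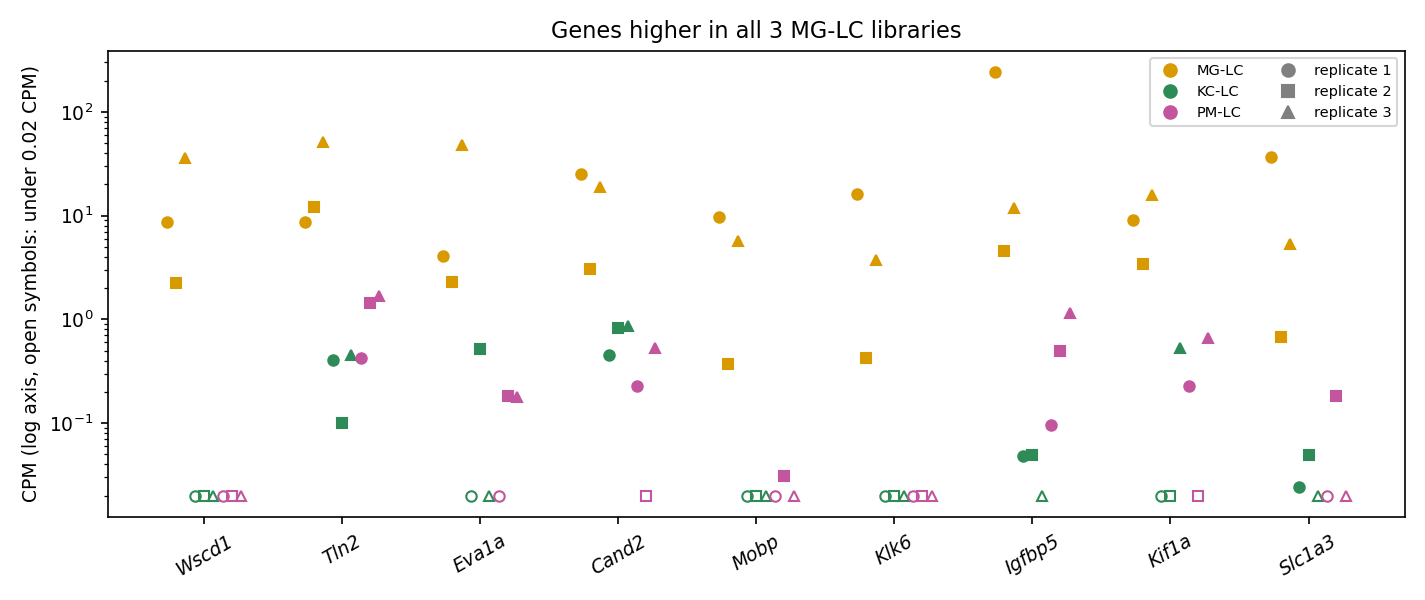
Level in CPM (log axis) of 9 genes that were higher in all 3 MG-LC libraries than in the other 6, with colour for the cell type and shape for the replicate number; open symbols at the bottom stand for levels under 0.02 CPM. Wscd1, Tln2, Eva1a, Cand2 and Slc1a3 were also called higher in sorted MG, and Mobp, Klk6, Igfbp5 and Kif1a were not. For Klk6, Igfbp5 and Slc1a3, replicate 1 was at least 4-fold above every other library.

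A larger set of genes was carried by MG-LC replicate 1 alone. In 306 genes (2.16%) replicate 1 was at least 4-fold above each of the other 8 libraries while MG-LC replicates 2 and 3 did not exceed the highest KC-LC or PM-LC library. The count for each of the other libraries was 0, 17, 2, 0, 0, 9, 23 and 1, in the order MG-LC replicates 2 and 3, KC-LC replicates 1 to 3 and PM-LC replicates 1 to 3. The 306 genes made up 6.32% of the normalized reads of replicate 1. With a 2-fold limit the set held 681 genes, and with an 8-fold limit 101. Of the 306 genes, 234 were under 1 CPM in every sorted MG library. In sorted cells 174 were tested, and 33 were higher in MG (19.0%) and 59 lower (33.9%).

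Matrix genes led the set. Dcn, the collagen-binding proteoglycan decorin, was at 5591, 2.14 and 91.6 CPM in MG-LCs, 0, 0.125 and 9.89 CPM in KC-LCs and 8.11, 318 and 55.1 CPM in PM-LCs. Col1a1, the main chain of fibrillar collagen, was at 5087, 2.09 and 344 CPM in MG-LCs, at most at 3.05 CPM in KC-LCs and at 2.07, 649 and 117 CPM in PM-LCs. PM-LC replicate 2 was the second library after MG-LC replicate 1 for both genes, and MG-LC replicate 2 was lower than MG-LC replicate 3. The log2 fold change of Dcn went from 6.59 to 1.20 (adjusted p = 0.812) when MG-LC replicate 1 was left out. Col1a2, Fstl1, Serpinh1, Timp1, Lox and Bgn, which encode collagen, matrix proteins and enzymes that process them, were at 1129.5 to 4682 CPM in replicate 1 and at most at 268 CPM in MG-LC replicates 2 and 3. Ptgs2, the inducible cyclooxygenase, was at 2291 CPM in replicate 1 and 49.1 to 144 CPM in the other 8 libraries, and Igfbp4 was at 2034 CPM against 129.7 to 393 CPM.

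Of the 22 fibroblast genes, 11 belonged to the set carried by replicate 1. All 22 were tested, 21 were higher at an unadjusted p under 0.05 and none was called, and their median log2 fold change was 7.15. Without MG-LC replicate 1, 6 were higher at an unadjusted p under 0.05 and the median was 3.29. Some matrix genes outside the set were above the other cultures in replicate 3 as well. Col3a1, another fibrillar collagen, was at 14991, 0.946 and 299.9 CPM in MG-LCs, 0 to 1.51 CPM in KC-LCs and 1.07, 78.5 and 31.6 CPM in PM-LCs, so that MG-LC replicates 1 and 3 exceeded all 6 other libraries and replicate 2 did not. Spp1, osteopontin, which macrophages and stromal cells both express, was at 19069, 7011 and 8179 CPM in MG-LCs and at 2316 to 6291 CPM in the other 6 libraries. Its level did not overlap, but sorted MG held 4.10 ± 2.14 CPM of it, less than sorted KCs (433 CPM).

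Genes lower in all 3 MG-LC libraries than in any of the other 6 numbered 272 (1.92%), but this count depended on the scale. Leaving out 1 library gave 285 to 1185 genes, with 575, 1185 and 412 without MG-LC replicates 1, 2 and 3, 562 without KC-LC replicate 1 and 696 without PM-LC replicate 3. The count was 88 on CPM without the composition factors and 17 when each gene was given as a percentage of the macrophage core, with 12 of the 17 among the 272. The split of genes without overlap was 291 higher and 272 lower on normalized CPM, 537 and 88 without the factors, and 426 and 17 per macrophage core. The macrophage core sum of MG-LC replicate 1 was below that of every other library. In sorted cells 25.2% of all genes were higher and 26.4% lower in MG at an unadjusted p under 0.05. Of the 272 genes, 263 were tested there. At an adjusted p under 0.05, 116 were lower in MG (44.1%) and 30 higher (11.4%), against 25.0% and 21.4% of all genes tested in both. Of the 14 genes tested in sorted cells among those 17, 9 were lower in sorted MG and 1 was higher.

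**Figure D4:**
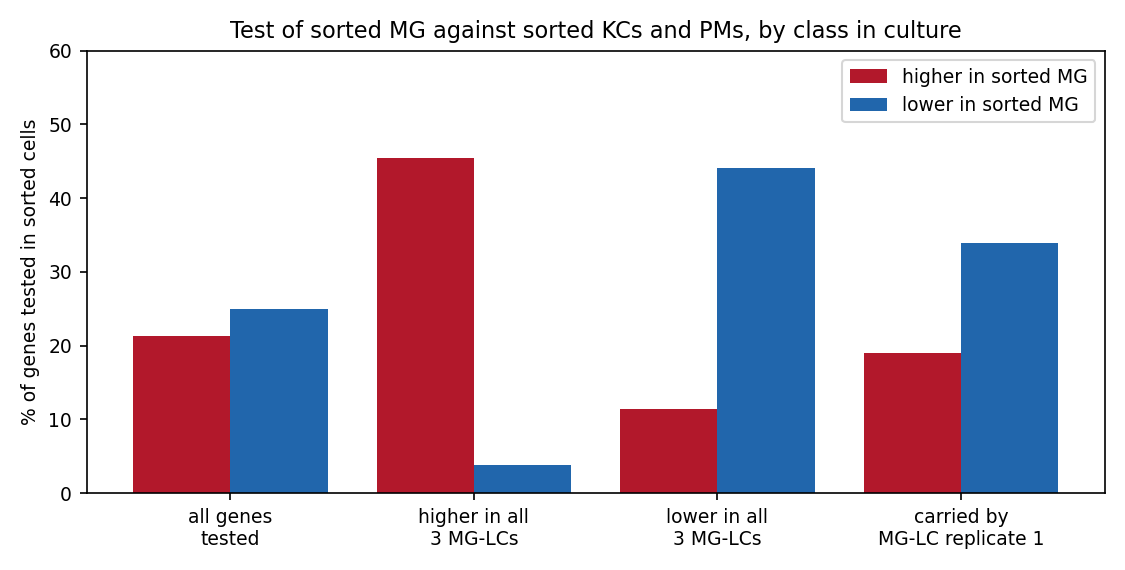
Percentage of genes called higher (red) or lower (blue) in sorted MG than in the mean of sorted KCs and PMs, for all genes tested in both cultures and sorted cells and for each class of genes in the cultures. Of the genes higher in all 3 MG-LC libraries 45.5% were higher in sorted MG, and of those lower in all 3, 44.1% were lower, against 21.4% and 25.0% of all genes.

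MHC class II genes had lower values in MG-LCs, short of the adjusted threshold. None of the 10 genes tested was called, 7 were lower and none higher at an unadjusted p under 0.05 (4.3% of all genes were lower), and the median log2 fold change was −1.57. H2-Aa (chr17:34282744-34287823, minus strand), the α chain of the class II molecule I-A, was at 15.4, 12.7 and 35.3 CPM in MG-LCs, 149, 140.1 and 633 CPM in KC-LCs and 169, 61.9 and 229.9 CPM in PM-LCs. The highest MG-LC library was below the lowest of the other 6, and the log2 fold change was −3.33 (SE 0.74, adjusted p = 0.198). H2-Eb1, a class II β chain, was at 6.63, 7.27 and 34.7 CPM in MG-LCs, 81.2, 85.1 and 436 CPM in KC-LCs and 82.4, 30.5 and 157 CPM in PM-LCs. H2-Ab1, the β chain of I-A, was at 53.6, 32.6 and 144 CPM in MG-LCs, 194, 244 and 1019 CPM in KC-LCs and 207, 88.8 and 295 CPM in PM-LCs. For both genes MG-LC replicate 3 exceeded PM-LC replicate 2, and no other MG-LC library exceeded any KC-LC or PM-LC library.

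Cd74, the invariant chain that escorts class II molecules, was at 54.0, 78.4 and 236 CPM in MG-LCs, 554, 545 and 2433 CPM in KC-LCs and 465, 217 and 1149 CPM in PM-LCs. Ciita, the coactivator that switches on class II genes, was at 0.282, 1.10 and 0.543 CPM in MG-LCs, 0.720, 4.61 and 16.7 CPM in KC-LCs and 2.10, 4.58 and 4.61 CPM in PM-LCs. In both genes a single KC-LC or PM-LC library reached into the MG-LC range. H2-DMb1 and H2-DMa, subunits of the molecule that loads peptides, did not overlap, with 32.9 to 64.7 CPM against 69.9 to 124 CPM and 18.6 to 32.9 CPM against 34.7 to 118 CPM. Their log2 fold changes were −0.93 and −1.06, less than those of the chains that present peptides. With H2-Aa these were the 3 class II genes without overlap, where 1.92% of all genes were below the other 6 libraries. Leaving out MG-LC replicate 2, MG-LC replicate 3 or PM-LC replicate 2 raised that number to 5, 6 and 6. The share of all genes was then 8.35, 2.9 and 2.41%.

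The spread within groups was large. The class II sum was 183, 224 and 564 CPM in MG-LCs, 1115, 1207 and 4785 CPM in KC-LCs and 1080.0, 558 and 1955 CPM in PM-LCs, so that MG-LC replicate 3 was just above PM-LC replicate 2. Without MG-LC replicate 1, 6 of the 10 genes were lower at an unadjusted p under 0.05 and the median was −1.34. As a percentage of the macrophage core, H2-Aa was 0.0778, 0.0279 and 0.0886 in MG-LCs and 0.129 to 0.959 in the other 6 libraries, still without overlap, while the other class II genes overlapped on that scale. In sorted MG, H2-Aa was at 0.471 ± 0.204 CPM against a mean of 2903 CPM in sorted KCs and 130.2 CPM in sorted PMs. The level of H2-Aa in MG-LCs thus lay below that in the other cultures and above that in sorted MG.

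The promoters of 2 class II genes are printed because the genes were low together in MG-LCs. Each holds, in capitals, GATTGG or its reverse CCAATC, the CCAAT-type letters of the Y box for which class II promoters are known (RefSeq, GRCm38.p6, 250 bases before the start, written 5′ to 3′, both strands searched). H2-Aa is at chr17:34287824-34288073 on the minus strand and H2-Eb1 at chr17:34305617-34305866 on the plus strand.
H2-Aa: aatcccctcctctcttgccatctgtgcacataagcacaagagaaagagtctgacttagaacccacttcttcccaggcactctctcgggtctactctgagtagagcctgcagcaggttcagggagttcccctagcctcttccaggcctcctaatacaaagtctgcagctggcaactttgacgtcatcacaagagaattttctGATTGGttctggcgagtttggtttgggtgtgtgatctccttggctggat
H2-Eb1: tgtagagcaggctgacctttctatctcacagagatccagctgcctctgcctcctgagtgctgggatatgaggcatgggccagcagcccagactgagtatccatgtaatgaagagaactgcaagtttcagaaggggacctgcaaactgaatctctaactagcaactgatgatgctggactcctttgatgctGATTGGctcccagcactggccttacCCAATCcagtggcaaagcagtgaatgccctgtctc
The first match lay 49 and 60 bases before the start in H2-Aa and H2-Eb1, and H2-Eb1 held 2 matches. Of all 32851 promoters of that length 14.6% held these letters. Of the 11 class II genes 8 had a promoter entry, and 7 of these 8 held the letters, H2-DMa being the exception. The match is a description of the letters and no measurement of binding.

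**Figure D5:**
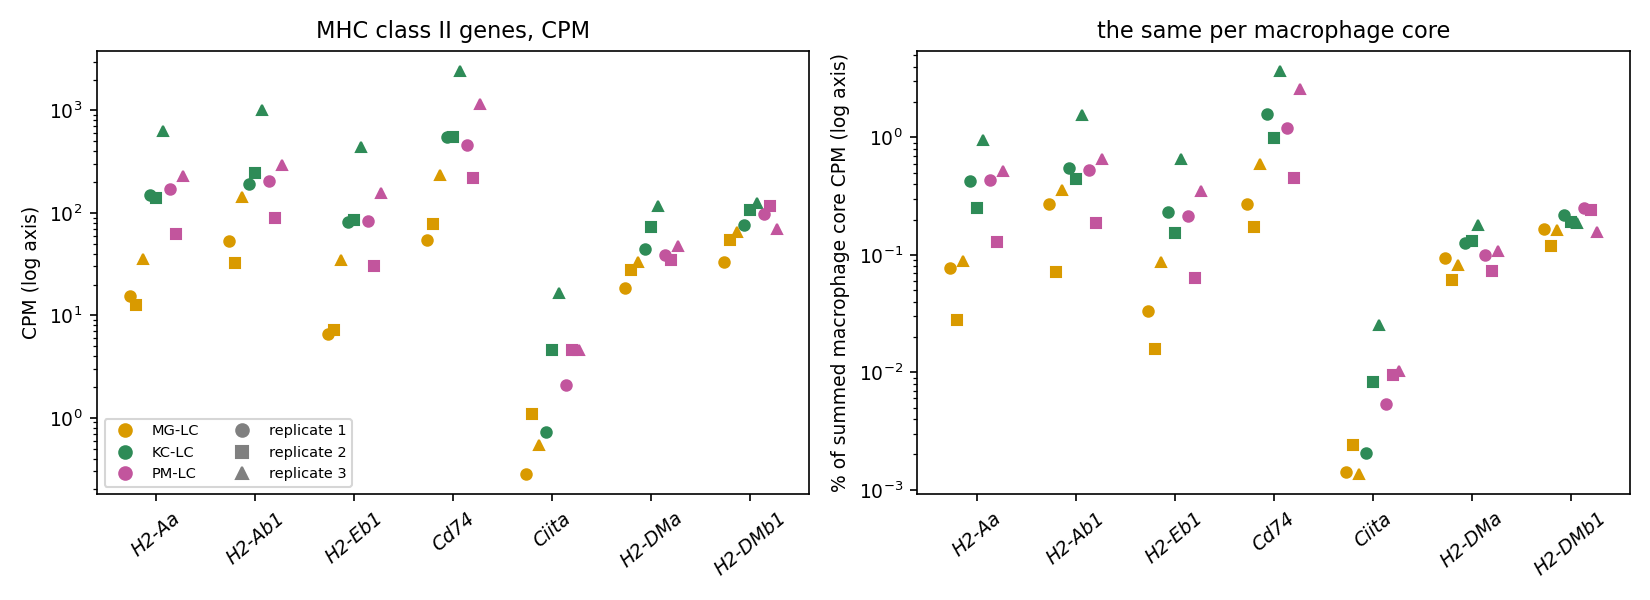
Level of 7 MHC class II genes in the 9 cultures, as CPM (left) and as a percentage of the summed CPM of the macrophage core of the same library (right), both on log axes, with colour for the cell type and shape for the replicate number. H2-Aa is lower in all 3 MG-LC libraries than in the other 6 on both scales, and H2-DMa and H2-DMb1 on the CPM scale alone.

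Fabp7 (chr10:57784881-57788450, plus strand), a fatty acid binding protein, was the gene that passed the test. It was at 1.46, 1.05 and 0.972 CPM in MG-LCs, 2.04, 6.38 and 5.93 CPM in KC-LCs and 188, 172 and 196 CPM in PM-LCs. The 3 MG-LC libraries were below the other 6, and the KC-LC libraries were closer to MG-LCs than to PM-LCs. The log2 fold change was −4.64 (SE 0.44, adjusted p = 0.0432) against the mean of both groups, −2.00 against KC-LCs (adjusted p = 0.297) and −7.28 against PM-LCs (adjusted p = 0.0038). Of 19 other fits 8 called it, with a lower level in MG-LCs in all 19. Of the 9 fits that left out 1 library, those without MG-LC replicate 2 and without KC-LC replicate 1 kept the call, and in the other 7 the adjusted p was 0.0974 (without MG-LC replicate 1) to 0.295 (without MG-LC replicate 3). Limma-voom gave an adjusted p of 0.129. Per macrophage core MG-LC replicate 1 (0.00742%) exceeded KC-LC replicate 1 (0.00582%). Lyz1, a lysozyme gene with a close copy in Lyz2 with which reads can be shared, was at 7.113, 9.859 and 7.001 CPM in MG-LCs, 3.217, 9.445 and 8.475 CPM in KC-LCs and 389, 873 and 533 CPM in PM-LCs. Both calls therefore came from PM-LCs, and KC-LCs were also lower than PM-LCs in these 2 genes and no others (0.0141% of the genes lower and 0% higher).

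Other genes with the largest gap on the lower side were Napsa, Taldo1, Sh2d1b1, Ncf4, Anxa1, Ccdc69, Fbxo6, Cd300a, Sap30 and Smpdl3a. Napsa, an aspartic protease, was at 20.1, 49.0 and 4.74 CPM in MG-LCs, 90.7, 172 and 113 CPM in KC-LCs and 103, 122 and 96.2 CPM in PM-LCs. It stayed without overlap per macrophage core (0.0119 to 0.108% against 0.171 to 0.311%). Cd300a, an inhibitory lipid receptor, was at 114, 399.6 and 306 CPM in MG-LCs against 521 to 835 CPM in the other 6 libraries, and it too stayed without overlap per macrophage core. Taldo1, an enzyme of the pentose phosphate pathway, was at 379.7, 645 and 533 CPM in MG-LCs against 995 to 1263 CPM, and Ncf4, a subunit of the phagocyte NADPH oxidase, was at 86.5, 166 and 114 CPM against 244 to 405 CPM. These 2 genes overlapped per macrophage core. With H2-Aa and Fabp7, 11 of the 12 genes of this rule were also called lower in sorted MG. Sh2d1b1, an adaptor of SLAM-family receptors, was the exception, at 3.26, 4.73 and 0.943 CPM in MG-LCs and 7.29 to 32.5 CPM in the other 6 libraries, with a log2 fold change of +2.47 in sorted cells (adjusted p = 0.0258).

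Of 20 LXR target and lipid genes none was called, 5 were higher and 2 lower at an unadjusted p under 0.05 (11% and 4.3% of all genes), and the median log2 fold change was 0.35. With MG-LC replicate 1 left out, 2 were higher and 2 lower. Nr1h3, the nuclear receptor LXRα that Kupffer cells need, was counted in the Kupffer list and not among these genes. Nr1h3 was at 10.3, 20.2 and 7.52 CPM in MG-LCs, 22.3, 51.7 and 49.4 CPM in KC-LCs and 122, 56.2 and 44.3 CPM in PM-LCs, without overlap on CPM and per macrophage core. Its log2 fold change was −2.09 (SE 0.49, adjusted p = 0.198). Scd2, a desaturase, was at 478, 146 and 191 CPM in MG-LCs against 19.4 to 114 CPM, and Lpcat3, which remodels phospholipids, was at 92.4, 70.3 and 72.4 CPM against 32.2 to 62.9 CPM. Both were also higher in sorted MG. Of 24 cholesterol synthesis genes none was higher and 1 lower, with a median of 0.10, and 3 were lower without MG-LC replicate 2.

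The receptor for both added ligands did not differ detectably. Csf1r, the receptor for M-CSF and IL-34, was at 628, 2172 and 2253 CPM in MG-LCs, 2020.0, 1889 and 2669 CPM in KC-LCs and 1441, 808 and 2339 CPM in PM-LCs (log2 fold change −0.10, SE 0.46, adjusted p = 0.941). MG-LC replicate 1 was the lowest of the 9 libraries, as it was for the macrophage core. For the CSF1 receptor, its ligands and its signalling, 27 genes were tested, with a median of 0.27. At an unadjusted p under 0.05, 2 were higher and none lower (11% and 4.3% of all genes). Leaving out MG-LC replicate 1 gave 1 higher and PM-LC replicate 2 gave 4, and up to 2 were lower (without MG-LC replicate 2). The 2 genes higher with all libraries were Etv4, which was carried by replicate 1, and Il34, whose transcript was at 5.57, 0 and 0.772 CPM in MG-LCs, 0 in KC-LCs and 0 to 0.709 CPM in PM-LCs. Csf1 transcript was at 108, 13.7 and 19.1 CPM in MG-LCs, 2.16 to 7.26 CPM in KC-LCs and 4.26, 147 and 29.0 CPM in PM-LCs. The 2 libraries with over 100 CPM of Csf1 were those with the highest fibroblast sums. MG-LC replicate 3 had a higher fibroblast sum than PM-LC replicate 3 (1598 against 621 CPM) but less Csf1. The part of fibroblast RNA in the Csf1 level was not tested.

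TGF-β genes were described because the microglial programme is known to depend on that ligand. Of 32 tested, 7 were higher and none lower at an unadjusted p under 0.05 (11% and 4.3% of all genes). Their median log2 fold change was 0.47. Without MG-LC replicate 1, 3 were higher and the median was 0.12, and without PM-LC replicate 1, 4 were higher. The fit without MG-LC replicate 2 had 10 higher and 4 lower, against 13.5% and 6.96% of all genes. Tgfbr2, the ligand-binding receptor, was at 149.6, 413 and 537 CPM in MG-LCs, 193 to 227 CPM in KC-LCs and 173 to 301 CPM in PM-LCs, and it did not overlap when given per macrophage core (0.758 to 1.35% against 0.344 to 0.672%). Tgfbr1, its partner, was at 41.8, 218 and 162 CPM in MG-LCs against 142 to 329 CPM in the other 6 libraries. Smad3, a transducer of the pathway, was at 37.6, 7.77 and 24.7 CPM in MG-LCs, 2.22 to 6.53 CPM in KC-LCs and 5.72 to 11.2 CPM in PM-LCs, with overlap between MG-LC replicate 2 and PM-LC replicate 3. No member of the pathway passed the adjusted test.

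Genes of the other identities were counted as well. Of 17 tested Kupffer genes, Fabp7 was called lower, and the median was −0.66. At an unadjusted p under 0.05, 1 was higher and 4 were lower (11% and 4.3% of all genes). Leaving out MG-LC replicate 2 gave 8 lower and a median of −2.06, and leaving out PM-LC replicate 2 gave 3 higher. Clec4f, the defining Kupffer lectin with 11739 CPM in sorted KCs, was at most at 0.171 CPM in MG-LCs and 0.168 CPM in KC-LCs, so that the liver cultures no longer held it. Cd5l, a secreted scavenger protein, was at 223, 214 and 2234 CPM in MG-LCs, 93.6, 22.6 and 16.7 CPM in KC-LCs and 563, 124 and 720.3 CPM in PM-LCs, so that all MG-LC libraries exceeded the liver cultures although sorted MG held 0.975 CPM and sorted KCs 5937 CPM. Vsig4, a complement receptor, was at most at 0.144 CPM in MG-LCs and KC-LCs and at 62.0, 16.1 and 101 CPM in PM-LCs. Of 20 peritoneal genes, 5 were higher and 5 lower, to be read against the same shares of all genes. Their median was 0.47 against the mean, 1.99 against KC-LCs and −0.85 against PM-LCs. None was higher and 4 were lower without MG-LC replicate 1, and the median against the mean was then −0.43. Leaving out PM-LC replicate 1 gave 3 higher, and leaving out KC-LC replicate 1, KC-LC replicate 3 or PM-LC replicate 3 gave 3 lower. Gata6, the factor of peritoneal macrophages, was at 2.36, 0 and 0.257 CPM in MG-LCs, at most at 0.504 CPM in KC-LCs and at 4.36, 27.1 and 19.7 CPM in PM-LCs, and Arg1, arginase 1, was at most at 8.32 CPM in MG-LCs and 0.0960 CPM in KC-LCs and at 121, 184 and 279.6 CPM in PM-LCs.

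Border macrophages of the brain could be present in a culture of whole brain, and 13 of 14 of their genes were tested. Of these, 4 were higher and none lower at an unadjusted p under 0.05 (11% and 4.3% of all genes). The median log2 fold change was 0.64. Without MG-LC replicate 3 or PM-LC replicate 2, 2 were higher, and without MG-LC replicate 2 the median was −0.04. F13a1, a coagulation factor subunit, was at 13.6, 16.1 and 184 CPM in MG-LCs, 1.87 to 3.18 CPM in KC-LCs and 5.65, 8.75 and 51.3 CPM in PM-LCs. Mrc1, the mannose receptor, was at 84.6, 257 and 297 CPM in MG-LCs and 30.4 to 134 CPM in the other 6 libraries. Lyve1, which defines many border macrophages, was at 0.0770, 0 and 0 CPM in MG-LCs. The summed level of the list was 1793 to 2705 CPM in MG-LCs and 1373 to 2792 CPM elsewhere, and the groups overlapped. The part of these cells in the MG-LC libraries was not tested.

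Genes induced in disease-associated microglia did not separate the cultures as a group. Of 26 tested, 3 were higher and 5 lower at an unadjusted p under 0.05 (11% and 4.3% of all genes). Their median log2 fold change was −0.25, and 3 were lower without MG-LC replicate 1. Lgals3, galectin-3, was at 2744, 8567 and 4842 CPM in MG-LCs and 9527 to 15910.3 CPM in the other 6 libraries, without overlap. Cst7, a cystatin, was at 6.29, 11.4 and 8.12 CPM in MG-LCs, 10.8, 13.1 and 2.95 CPM in KC-LCs and 0 to 0.279 CPM in PM-LCs, so that it separated both other groups from PM-LCs. Gpnmb and Lpl, a membrane glycoprotein and lipoprotein lipase, were lowest in MG-LC replicate 1 (4984 and 299 CPM), and their levels in replicates 2 and 3 (16817 to 18918 and 7109 to 8444 CPM) lay within the range of the other 6 libraries.

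Among lysosomal genes, 2 of 38 were higher and 6 lower at an unadjusted p under 0.05 (11% and 4.3% of all genes). Their median was −0.25. The number lower was 3 without MG-LC replicate 1, KC-LC replicate 2, KC-LC replicate 3 or PM-LC replicate 1, and the number higher was 0 to 3 over the 9 fits without 1 library. Ctss, a protease that trims the invariant chain, was at 2722, 3366 and 3916 CPM in MG-LCs, 4059, 6922 and 7146 CPM in KC-LCs and 9780.1 to 14449 CPM in PM-LCs, without overlap, whereas in sorted cells it was higher in MG (log2 fold change 0.96, adjusted p = 0.0023). Cd9 and Irf5 were likewise below the other 6 libraries in culture and called higher in sorted MG, among the 30 genes of that kind.

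Interferon-stimulated genes depended on MG-LC replicate 1. Of 28 tested, none was higher and 4 were lower at an unadjusted p under 0.05 (11% and 4.3% of all genes). Their median was −0.43. Without MG-LC replicate 1, 19 were lower, in a fit with 3.86% of all genes lower, and the median was −1.75. In the fits without MG-LC replicates 2 and 3, 2 and 1 were lower, and 7 without KC-LC replicate 1. Their sum was 6359, 2095 and 1216 CPM in MG-LCs, 1256, 5650.5 and 4129 CPM in KC-LCs and 8852, 8045 and 4492 CPM in PM-LCs. MG-LC replicates 2 and 3 and KC-LC replicate 1 were thus the lowest libraries, and the groups overlapped. Irf7, a factor that amplifies the response, had the same order among MG-LCs, with 553, 53.1 and 21.7 CPM, and 37.2 to 1411 CPM in the other 6 libraries.

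Cell cycle genes had their lowest sums in PM-LCs. Of 38 tested, 7 were higher and none lower at an unadjusted p under 0.05 (11% and 4.3% of all genes), and the median log2 fold change was 1.26. The number higher rested on single libraries, with 28 without PM-LC replicate 2, 15 without MG-LC replicate 3, 2 without MG-LC replicate 2 and 4 without MG-LC replicate 1, KC-LC replicate 2, KC-LC replicate 3 or PM-LC replicate 3. The median was 0.71 to 1.64 over the 9 fits without 1 library. With all libraries it was −0.24 against KC-LCs and 2.82 against PM-LCs. The sum was 2103, 2611 and 909.9 CPM in MG-LCs, 3715, 1799.7 and 1627 CPM in KC-LCs and 520.5, 893 and 517 CPM in PM-LCs. Top2a, a topoisomerase of dividing cells, was at 98.3, 161 and 30.6 CPM in MG-LCs, 206, 66.2 and 97.9 CPM in KC-LCs and 3.24 to 12.4 CPM in PM-LCs. MG-LC replicate 3 was the lowest of the MG-LC and KC-LC libraries and was still above all PM-LC libraries.

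Genes of the hypoxic response were included because all 9 cultures were kept at the same oxygen level. Of 30 tested, 9 were higher and none lower at an unadjusted p under 0.05 (11% and 4.3% of all genes). Their median was 0.59, and without MG-LC replicate 1, 5 were higher and the median was 0.29. Without KC-LC replicate 1, 14 were higher. Ddit4, an inhibitor of mTOR signalling induced by stress, was at 32.1, 2.27 and 1.69 CPM in MG-LCs and at most at 0.864 CPM elsewhere. Egln3, an oxygen-sensing hydroxylase, was at 155, 26.5 and 105 CPM in MG-LCs and 13.2 to 36.7 CPM elsewhere, with replicate 2 inside the range of the others. Vegfa, the vascular growth factor, was at 896, 203 and 455 CPM in MG-LCs and 129 to 659.6 CPM elsewhere (log2 fold change 0.61, adjusted p = 0.620). Replicate 1 was the highest of the 3 MG-LC libraries for each of these genes.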

How the data were processed

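RNA of 9 cultures was analysed (3 MG-LC, 3 KC-LC and 3 PM-LC libraries), with the 9 libraries of sorted MG, KCs and PMs as a reference. The authors deposited raw counts of reads per gene, without normalization or filter, which they made by trimming single reads with Trimmomatic and aligning them with STAR to mm10. The submitters' processing notes give Trimmomatic 0.36 and STAR 2.5.2b and name a human build, but the identifiers are of mouse genes. Symbols and coordinates were matched by Ensembl identifier to the annotation of GRCm38 for 45143 of 45706 genes, and 3 list genes (Lilrb4a, Cxcl4 and Ero1a) were not found.

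A two-sided quasi-likelihood test (edgeR, TMM factors, filterByExpr at a minimum count of 10) was run on the counts of the 9 cultured libraries, as MG-LCs minus the mean of KC-LCs and PM-LCs, minus KC-LCs and minus PM-LCs. P-values were adjusted by Benjamini-Hochberg over all genes tested, and 0.05 was the threshold. CPM were normalized over all 24 libraries, and values after ± are SDs. The authors used limma-voom, which was an alternative here because the files hold counts. R 4.3.3, edgeR 4.0.16, limma 3.58.1 and DESeq2 1.42.0 were used, and the fits were tested on simulated data. A gene was higher (or lower) in all 3 MG-LC libraries when these did not overlap the other 6. It was carried by a library that was at least 4-fold above the other 8 while the rest of its group did not exceed the other groups, with 0.1 CPM added. Counts of gene classes and medians of gene lists are descriptions without a test.

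Named genes are Fcrls and Sall1, list members with extreme fold changes or known roles, the 12 genes per direction with the largest gap between groups (mean of at least 5 CPM on the higher side, no predicted gene models), the 10 genes carried by MG-LC replicate 1 with the highest CPM, and genes past the threshold. Some genes that meet this rule are not reported here. Mog, Aqp4, Lyve1, Clec4f, Arg1, Mrc1, Irf7, Ctss, Top2a, Vegfa, Csf1 and other list members without extreme values were named for their roles after their values were seen. Genes, lists and comparisons were chosen with earlier results of these data known. The comparisons per macrophage core, the classes and lists without single libraries, and the test of cultured against sorted contrasts were added after seeing the data. AM libraries were not used here other than for normalization and 1 alternative.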

Additional observations from a re-analysis of the deposited data

Results flagged for a closer look

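For 11 of 24 named genes the difference between MG and the mean of KCs and PMs was not the same size in culture as in sorted cells, by an interaction term in an edgeR model of both sets of libraries (16848 genes tested, 1929 higher and 1028 lower at an adjusted p under 0.05). The test was chosen after seeing the data. All of these genes but Fcrls were among those with the largest gap between the same cultured libraries, which enter the term. The count of 11 and the adjusted p-values below are therefore not independent of that choice. Values are the log2 difference in culture minus that in sorted cells, and the cause of none of them was tested. Fcrls was −8.75 (2.31 in culture and 11.04 in sorted cells, adjusted p = 0.000685), so that the direction was shared and the culture value smaller. Genes lower in both settings, by less in culture, were Anxa1 with 7.36 (adjusted p = 4.42e-05), Napsa with 7.07 (adjusted p = 0.00415), H2-Aa with 7.02 (adjusted p = 9.23e-05), Fabp7 with 5.79 (adjusted p = 4.42e-05), Smpdl3a with 4.15 (adjusted p = 5.83e-06), Ccdc69 with 2.19 (adjusted p = 0.029) and Taldo1 with 0.99 (adjusted p = 0.0178). Mobp was 7.91 (adjusted p = 0.0335), a myelin gene nearly without reads in the other cultures, whose fitted value depends on the prior count. Kif1a was 7.43 (5.39 in culture and −2.05 in sorted cells, adjusted p = 0.0152), and Sh2d1b1 was −4.69 (−2.22 in culture and 2.47 in sorted cells, adjusted p = 0.00261), each with opposite signs in the 2 settings. Sorted MG hardly held Kif1a, so its value in sorted cells rests on few reads in MG.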

How the results depend on the processing

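The counts of called genes in the cultures depended on the method. Against the mean of both groups (0 higher, 1 lower), limma-voom called 0 and 0 (979 and 688 at an unadjusted p under 0.05), limma with library weights 7 and 0, DESeq2 571 and 198, all 24 libraries in 1 model 723 and 249, and KC-LCs and PM-LCs as 1 group 0 and 0. Of the DESeq2 calls, 120 and 94 were genes without overlap. Against KC-LCs (0 and 0), DESeq2 called 822 and 44 and the model of 24 libraries 310 and 47. Against PM-LCs (0 and 2), library weights gave 24 and 41, DESeq2 369 and 292, the model of 24 libraries 205 and 258, and no filter on low counts 4 lower. RLE size factors, a filter of 1 CPM in 3 libraries, robust dispersions and a limit of 1.5 on the log2 fold change left 0 and 1 against the mean. Leaving out 1 library at a time gave 0 to 305 higher and 0 to 90 lower against the mean, 0 to 93 and 0 to 40 against KC-LCs, and 0 to 3 lower against PM-LCs, with the highest counts against the mean and KC-LCs without MG-LC replicate 2. The calls in sorted cells stayed within 1.5 times under every alternative run.

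A replicate block called 0 higher and 0 lower against the mean and 1 lower against PM-LCs, and moved no other count past 1.5 times. In their deviations from the group mean, same-numbered libraries had correlations of −0.47 to 0.31. These were 0.26, 0.31 and 0.28 for libraries numbered 3, and −0.47 to 0.12 for those numbered 1 and 2. Differently numbered libraries were not compared, so the values cannot decide whether the numbers pair the libraries.

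Genes higher in all 3 MG-LC libraries (291) and lower in all 3 (272) were 537 and 88 without TMM factors, 298 and 247 with TMM over 9 libraries, and 426 and 17 per macrophage core. Leaving out each of the 9 libraries in turn gave 324 to 1185 higher and 285 to 1185 lower, with the highest counts without MG-LC replicate 2, and 695 and 575 without MG-LC replicate 1. Fewer libraries overlap less often by construction. The 306 genes carried by MG-LC replicate 1 were 681 at 2-fold and 101 at 8-fold.

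The sign turned for 3 genes that no fit called. Csf1r (−0.10) was 0.14 with library weights and −0.37 to 0.28 leaving out 1 library. Cx3cr1 (0.59) was −0.063 with KC-LCs and PM-LCs as 1 group and −0.21 to 1.56 leaving out 1 library. Igfbp4 (1.72) was −0.057 to 2.22 leaving out 1 library. The causes of these changes were not tested.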
